A study of Mus musculus with 2 samples.

Results

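Glycosaminoglycans are long, sulfated sugar chains that fibroblasts attach to proteoglycan core proteins or, for hyaluronan, release without a core protein and without sulfate. This account covers the enzymes that build, sulfate and trim them. The members were 42 genes named by a fixed list, each taken through the probe sets whose annotation gives that gene symbol alone. Of these, 40 genes had such a probe set, with 72 probe sets in all, out of 18193 genes and 45101 probe sets in the whole table. Xylt1 and Ndst1 had none. The 42 genes cover the linker to the core protein, heparan sulfate, chondroitin and dermatan sulfate, hyaluronan and the supply of precursors.

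RNA from mouse embryonic fibroblasts (MEFs) was hybridised to Affymetrix arrays in 1 culture with both intact Fut8 alleles (Fut8+/+) and 1 culture homozygous for the disrupted allele (Fut8-/-). Fut8 encodes the transferase that adds core fucose to N-glycans, and the study asked how gene expression differs between the genotypes. The cells carry the source label of mouse cell lines, were grown in the same serum-containing medium and received no treatment, and neither embryo age nor strain is given. The design text names 3 cultures per genotype, but 1 array per genotype was analysed here. There is therefore no replicate check and no test of any difference below, and fewer cells of a type cannot be told apart from less RNA per cell.

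Signals are printed as deposited, in arbitrary linear units. Ratios are Fut8-/- over Fut8+/+ on the log2 scale, after the Fut8-/- signals were multiplied by 1.16 to centre the arrays on each other, and signals below a floor of 12.3 were raised to it. Where 1 array lies at the floor the fold is a lower bound and is written with "at least". A gene counted as measured when its brighter array reached a signal of 39.1, and as higher or lower when it differed by 2-fold or more. Probe sets for one gene spread around their gene mean by 0.40 log2 units (SD, 5389 genes), which is a technical spread within the pair of arrays and not the error between cultures.

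The label of the Fut8-/- array was checked first. Fut8 itself read 190.9 in Fut8+/+ and 11.7 in Fut8-/-, 14.1-fold lower. Whether its probe set lies in the disrupted part is unknown here. Sex-linked transcripts differed too: the Y-linked gene Eif2s3y gave 7.06 and 2845, and Xist, the transcript of the inactive X chromosome, gave 656 and 15.2, each with Fut8+/+ first. The genotypes and these sex-linked differences cannot be told apart. Of 12 fibroblast markers 10 reached the measured limit on at least 1 array, while Thy1 and Fap were not measured. Vim, at 11471 and 11110, and Col1a2, at 11280 and 9433, were bright on both arrays. Of the 10, 4 were lower (Col1a1, Pdgfra, Prrx1 and Fbln2) and Pdgfrb was higher. Prrx1 read 221 and 7.26, at the floor on Fut8-/- and at least 17.9-fold lower. The summed signal of all 12 was 37847 in Fut8+/+ and 33676 in Fut8-/- as deposited. After centring it was 39189 in Fut8-/-, so its direction depends on the scaling. Most of this sum comes from Vim, Col1a2 and S100a4 (8152 and 10180), so it says little on the dimmer markers. The sums here and below include markers that were not measured. None of 5 endothelial markers and 1 of 6 leukocyte markers (Csf1r) was measured, and Pecam1 and Ptprc lay below the floor on both arrays. As deposited, markers of neural cells summed to 798 and 187 (4 of 5 measured, 3 of them lower), and epithelial markers to 116 and 308 (3 of 8 measured; Krt19 and Dsp higher, Epcam lower, and Cdh1 below the floor on both arrays). Skeletal muscle markers summed to 107 and 80.8 (2 of 5 measured), chondrocyte markers to 160.0 and 99.9 (1 of 5) and adipocyte markers to 72.1 and 42.3 (1 of 3). The part of these differences in the results below was not tested.

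Heparan sulfate and chondroitin sulfate start from the same short linker on a serine of the core protein. The chain is then extended as a repeat of an amino sugar and a uronic acid, and sulfate is added at set positions from the donor PAPS (3'-phosphoadenosine 5'-phosphosulfate). In heparan sulfate the pattern of these sulfates decides which growth factors and matrix proteins bind, and sulfatases outside the cell can remove part of them. Chondroitin and dermatan sulfate carry sulfate mainly on the amino sugar and are abundant in connective tissue, and hyaluronan is made at the cell surface.

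Most measured enzymes differed by less than 2-fold between the cultures, and those beyond it were lower in Fut8-/-. Of the 40 members on the array 28 were measured, and 8 of the 28 passed the 2-fold limit downwards, 0 passed it upwards and 20 did neither. The lower members were Hs6st2, Papss2, Chst7, Sulf1, Chst11, Extl1, Hpse and Chpf, which act in chain assembly, sulfation, trimming and PAPS supply. Among all 10164 measured genes 8.46% were lower and 6.08% were higher by the same rule, against 28.6% lower among the members. The member list was set with earlier results of these data known, so this contrast is no independent support. Hs6st2, Papss2, Chst7, Sulf1, Extl1 and Hpse reached the measured limit on the Fut8+/+ array alone, and 4 of the 8 folds are bounds at the floor. A gene that reaches the limit on 1 array and lies at the floor on the other is past 2-fold by construction. The same holds among all genes. The members' median log2 ratio was -0.23 and that of all measured genes 0.00. Most of the lower members were dim: 6 of the 8 measured members whose brighter array stayed below a signal of 100 were lower, in a range where 17.1% of all measured genes were lower. Between 100 and 400, 1 of 12 members was lower (Chst11; 8.71% of all genes), and at 400 and above 1 of 8 (Hs6st2; 5.10% of all genes). The shares of all genes that were higher in these 3 ranges were 12.0%, 5.56% and 4.33%, against 0 members in each. Of the 20 measured members within 2-fold, 13 had a log2 ratio smaller than the probe set SD and 7 a larger one.

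Without centring 9 members were lower and 0 higher, the further one being Csgalnact2, while among all measured genes the split of 618 higher and 860 lower became 416 and 1205. A floor at the 60th percentile left 3 lower members, Hs6st2, Chst11 and Chpf, and a requirement that the brighter array reach the 75th percentile left 2, Hs6st2 and Chst11.

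**Figure D1:**
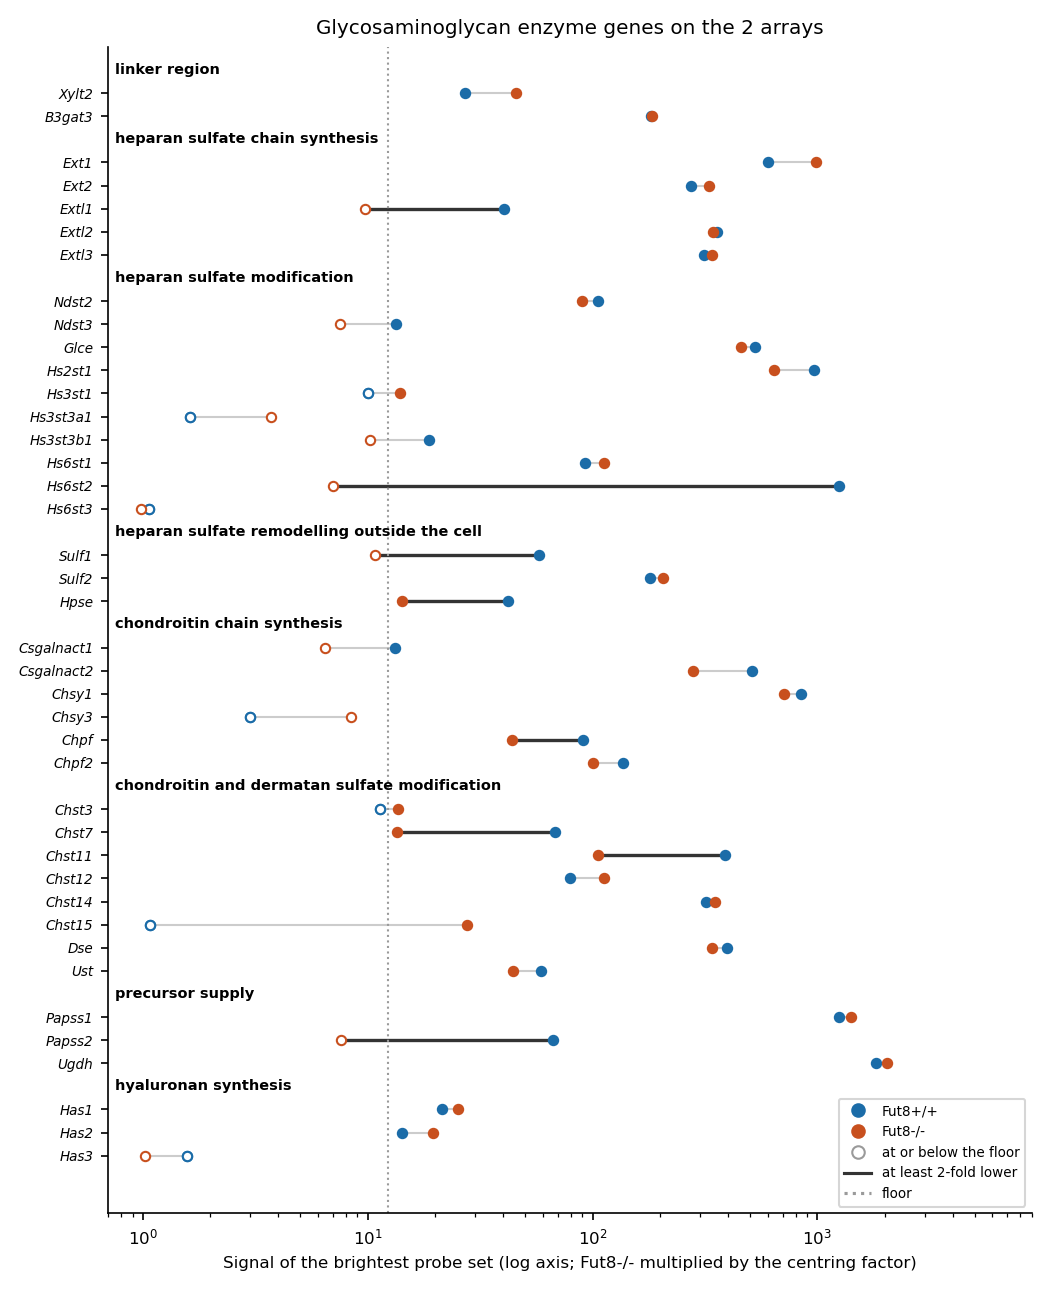
Signal of each of the 40 genes (brightest probe set, log axis, arbitrary units) on the Fut8+/+ array (blue) and, after centring, on the Fut8-/- array (orange), grouped by role, with open circles at or below the floor (dotted line). Dark bars join the 8 genes at least 2-fold lower in Fut8-/-, of which Hs6st2 spans the widest distance.

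**Figure D2:**
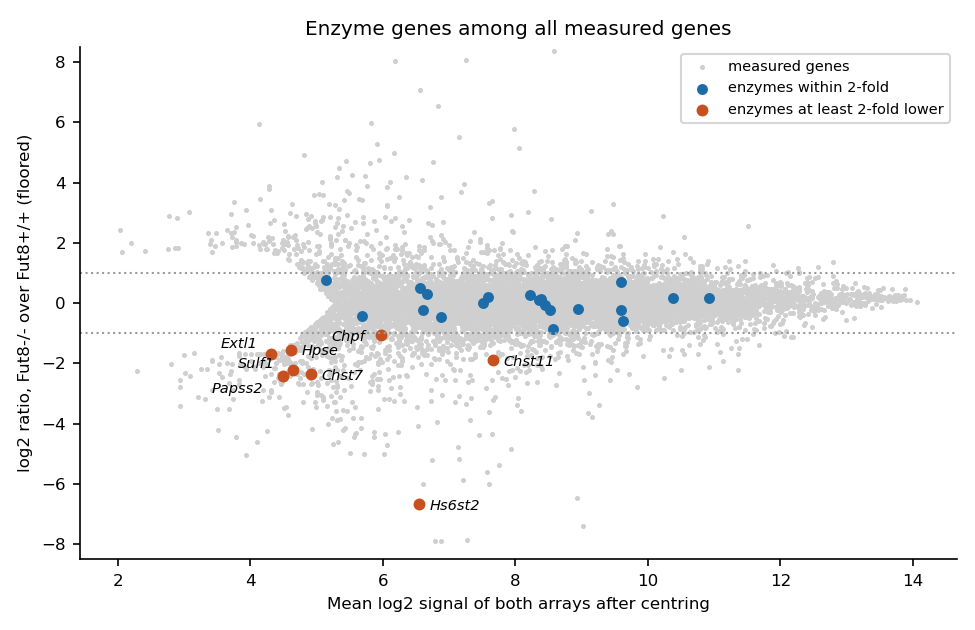
Floored log2 ratio of Fut8-/- over Fut8+/+ against the mean log2 signal of both arrays, for all 10164 measured genes (grey) and the 28 measured glycosaminoglycan enzyme genes (coloured); dotted lines mark 2-fold. The 8 lower enzymes are named, and 6 of them lie at the dim end.

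In the linker region the measured genes lay within 2-fold. Xylt2, a xylosyltransferase that places the first sugar on the core protein, had signals of 27.2 in Fut8+/+ and 39.2 in Fut8-/- (log2 ratio 0.75). B3gat3, which adds the glucuronic acid that completes the linker, had signals of 182 and 158 (0.01). Xylt2 rests on 1 probe set, and the other probe set of B3gat3 read 26.6 and 16.7 (-0.45).

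The enzymes that polymerise heparan sulfate were close on both arrays, with 1 of 5 lower. Ext1 and Ext2 form the complex that extends the chain. Ext1 read 604 and 843, a log2 ratio of 0.70 that was among the highest of the members, and Ext2 read 273 and 282 (0.26). Their dimmer probe sets had the other sign, at -0.47 and -0.55, each with the Fut8-/- array at the floor. Extl3, which adds the first amino sugar of heparan sulfate to the linker, read 314 and 291 (0.11), and the related transferase gene Extl2 read 358 and 294 (-0.07), with its other probe set at -0.12. The lower one was Extl1, a further gene of this family, with signals of 40.3 and 8.35. It was at least 3.26-fold lower on a single probe set that only just reached the measured limit, and at the higher floor its log2 ratio was -0.04.

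Among the enzymes that modify the heparan sulfate chain, the outlying gene was Hs6st2, one of the 6-O-sulfotransferases. Its brightest probe set read 1248 in Fut8+/+ and 6.02 in Fut8-/-, at least 101-fold lower. A further probe set of the gene read 88.1 and 0.719, at least 7.14-fold lower, and a dim one 13.8 and 0.397. The remaining one was below the floor on both arrays. All 4 were at the floor on Fut8-/-, so the sign of the first 3 follows from their level on Fut8+/+ and adds no support. Across floors at the 20th and the 60th percentile the log2 ratio was -7.48 and -5.00, and the median over all 4 probe sets was -1.50.

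The paralogue Hs6st1 was within 2-fold, at 92.2 and 97.1 (log2 ratio 0.29). Hs6st3 lay below the floor on both arrays, at 1.07 and 0.841, and has no ratio. Hs6st2 lies on chromosome X, Hs6st1 on chromosome 1 and Hs6st3 on chromosome 14. The 250 bases before the annotated start of Hs6st2 and of Hs6st1 are shown because these paralogues had opposite signs here. They are RefSeq windows of build GRCm38.p6, at chrX:51681603-51681852 on the minus strand and chr1:36068150-36068399 on the plus strand. Capitals mark the TATA box motif (TATAAA), the GC box motif (GGGCGG) and the CCAAT box motif on either strand.
Hs6st2: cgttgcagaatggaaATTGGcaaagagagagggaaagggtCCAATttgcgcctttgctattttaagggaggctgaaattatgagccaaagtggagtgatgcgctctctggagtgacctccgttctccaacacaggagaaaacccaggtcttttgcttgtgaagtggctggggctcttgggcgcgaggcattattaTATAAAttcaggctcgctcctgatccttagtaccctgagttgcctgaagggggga
Hs6st1: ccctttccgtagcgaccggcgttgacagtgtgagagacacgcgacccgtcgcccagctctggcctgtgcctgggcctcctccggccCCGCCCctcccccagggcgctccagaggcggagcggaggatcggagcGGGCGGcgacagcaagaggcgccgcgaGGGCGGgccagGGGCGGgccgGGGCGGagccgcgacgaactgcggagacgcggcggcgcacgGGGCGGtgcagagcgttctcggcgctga
The Hs6st2 window held 1 TATAAA, 2 CCAAT and 0 GGGCGG, with 7 CpG dinucleotides, whereas that of Hs6st1 held 6 GGGCGG, no TATAAA, no CCAAT and 37 CpG. A further annotated start of Hs6st2 had a window with 26 CpG and none of the 3 motifs. In 32851 windows of the same length in the table, 12.4% held TATAAA, 32.7% GGGCGG and 33.8% CCAAT. These letters describe the windows and show no binding.

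The remaining modifying enzymes were within 2-fold. Hs2st1, the 2-O-sulfotransferase, was bright, at 967 and 552 (log2 ratio -0.59), but its other probe sets ranged from -0.49 to 0.25. Glce, the epimerase that turns glucuronic into iduronic acid, read 526 and 394 (-0.20). Its probe set of 47.6 and 17.3 gave -1.24. Ndst2, an N-deacetylase and N-sulfotransferase, read 105 and 77.1 (-0.23). Ndst3 and the 3-O-sulfotransferase genes Hs3st1, Hs3st3a1 and Hs3st3b1 were not measured, with no signal above 18.7 on either array, so no statement on 3-O-sulfation enzymes can be made at this signal level.

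Outside the cell, 2 of 3 genes that trim heparan sulfate were lower, against 8.46% of all measured genes. Both had signals below 100, a range in which 17.1% of all measured genes were lower. Sulf1, a sulfatase that removes 6-O-sulfate from the finished chain, read 57.7 and 9.23, at least 4.67-fold lower. A further probe set read 37.3 and 1.41, at least 3.02-fold lower. Its sign adds no support, since Fut8-/- was at the floor and the sign follows from the Fut8+/+ level. The remaining probe set of Sulf1 was below the floor on both arrays, at 0.569 and 0.449. Sulf2, the paralogue of Sulf1, read 180 and 176 (log2 ratio 0.19). The other probe sets of Sulf2 gave -0.30 and 0.11, so those 3 probe sets stayed within the technical spread. Heparanase (Hpse), the enzyme that cuts the chain, read 42.3 and 12.2, 2.98-fold lower on 1 probe set. With the floor at the 60th percentile the log2 ratios of Sulf1 and Hpse were -0.56 and -0.11.

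Of 4 measured genes of chondroitin chain synthesis 1 passed 2-fold. All 4 log2 ratios were negative, as were those of 5076 of the 10164 measured genes, but with each chromosome centred Chsy1 was at 0.03. The gene past 2-fold was Chpf, a polymerising factor, with signals of 90.7 and 37.7 (2.07-fold lower, 1 probe set). It sat at the limit, since quantile normalization gave a log2 ratio of -0.97. The related Chpf2 read 137 and 86.1 (-0.45) and the synthase gene Chsy1 845 and 612 (-0.25). Csgalnact2, which places the first N-acetylgalactosamine, read 512 and 240 (-0.88), and without centring -1.09. Its paralogue Csgalnact1 and the synthase gene Chsy3 were not measured.

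Sulfation enzymes of chondroitin differed between paralogues. Chst11, a chondroitin 4-O-sulfotransferase, read 389 and 90.8, 3.68-fold lower, and its dimmer probe set read 25.4 and 11.0 (log2 ratio -0.98). Chst12, with the same reaction, read 79.1 and 96.2 (0.50), and Chst14, the 4-O-sulfotransferase of dermatan sulfate, 321 and 302 (0.13). Chst11 was therefore the only one of these 3 genes past 2-fold, and it was called lower under each of the 10 processing alternatives tried on all chromosomes, as Hs6st2 was. Chst7, a 6-O-sulfotransferase on chromosome X, read 68.2 and 11.6, 5.07-fold lower on 1 probe set, and -0.80 on the log2 scale with the higher floor. The other 6-O-sulfotransferase gene, Chst3, was not measured, at 11.4 and 11.7.

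The windows before the starts of Chst11 and Chst12 are shown as the pair of 4-O-sulfotransferases that had opposite signs, at chr10:82985247-82985496 and chr5:140505359-140505608, both on the plus strand of GRCm38.p6 from RefSeq. Capitals mark the same motifs as above.
Chst11: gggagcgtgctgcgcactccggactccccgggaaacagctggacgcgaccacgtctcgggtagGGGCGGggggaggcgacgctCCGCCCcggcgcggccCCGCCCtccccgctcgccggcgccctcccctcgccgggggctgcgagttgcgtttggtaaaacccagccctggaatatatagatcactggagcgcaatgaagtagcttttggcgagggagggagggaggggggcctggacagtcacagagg
Chst12: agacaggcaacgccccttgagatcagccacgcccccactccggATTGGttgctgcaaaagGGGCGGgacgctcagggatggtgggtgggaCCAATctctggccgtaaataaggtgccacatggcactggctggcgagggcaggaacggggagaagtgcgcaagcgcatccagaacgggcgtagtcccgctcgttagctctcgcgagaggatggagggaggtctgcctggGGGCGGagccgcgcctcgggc
The Chst11 window held 3 GGGCGG and no CCAAT with 26 CpG, and the Chst12 window 2 GGGCGG and 2 CCAAT with 20 CpG. Neither held TATAAA.

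Enzymes that act on the uronic acid of chondroitin were within 2-fold. Dse, the epimerase that makes dermatan sulfate, read 398 and 291 (log2 ratio -0.23), and the uronyl 2-O-sulfotransferase gene Ust read 59.2 and 38.1 (-0.42). Chst15, which adds a further sulfate to N-acetylgalactosamine 4-sulfate, was the 1 member that pointed clearly upwards. It read 1.07 and 23.8, at least 2.25-fold higher, but did not reach the measured limit and is not counted; its other probe set was below the floor on both arrays.

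Both enzymes that make PAPS were on the array, and they differed. Papss1 was bright and close on both arrays, at 1243 and 1213 (log2 ratio 0.18). Papss2 read 66.4 and 6.53, at least 5.38-fold lower. Of its other 3 probe sets, 1 read 13.8 and 0.665, where the bound is only 1.12-fold, and 2 were below the floor on both arrays, so that the median over its probe sets was -0.08. With the higher floor its log2 ratio was -0.76. Ugdh, which makes UDP-glucuronic acid for all of these chains, read 1824 and 1756 (0.16). The sign of Papss1 depends on the scaling, since its log2 ratio was -0.04 without centring and -0.01 with each chromosome centred. Without centring the log2 ratios of Ugdh, Sulf2, Chst14, Extl3 and B3gat3 were negative too, at -0.05, -0.03, -0.09, -0.11 and -0.21. The windows before the first listed starts of Papss2 and Papss1 are given because only Papss2 passed 2-fold. They lie at chr19:32595465-32595714 and chr3:131564518-131564767, on the plus strand of GRCm38.p6 from RefSeq, with the same capitals.
Papss2: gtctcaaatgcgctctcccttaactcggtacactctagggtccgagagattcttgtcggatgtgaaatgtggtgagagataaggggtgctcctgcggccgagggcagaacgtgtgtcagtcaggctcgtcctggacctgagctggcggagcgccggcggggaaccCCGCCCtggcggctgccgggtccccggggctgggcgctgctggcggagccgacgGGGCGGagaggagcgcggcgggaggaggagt
Papss1: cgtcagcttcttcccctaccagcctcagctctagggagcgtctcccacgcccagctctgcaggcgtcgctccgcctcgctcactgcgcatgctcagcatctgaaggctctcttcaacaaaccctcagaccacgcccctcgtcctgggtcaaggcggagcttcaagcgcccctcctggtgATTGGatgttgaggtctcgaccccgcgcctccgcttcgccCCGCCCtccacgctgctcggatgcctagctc
The Papss2 window held 2 GGGCGG and no CCAAT with 24 CpG, and the Papss1 window 1 GGGCGG and 1 CCAAT with 20 CpG. At the further annotated starts the counts differed: the window of Papss2 held 2 CCAAT, no GGGCGG and 1 CpG, and that of Papss1 neither motif and 5 CpG.

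The hyaluronan synthase genes Has1, Has2 and Has3 were not measured. Has1 read 21.4 and 21.6, Has2 14.2 and 16.7, and Has3 1.58 and 0.881, so a difference in these genes was not detectable on these arrays.

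**Figure D3:**
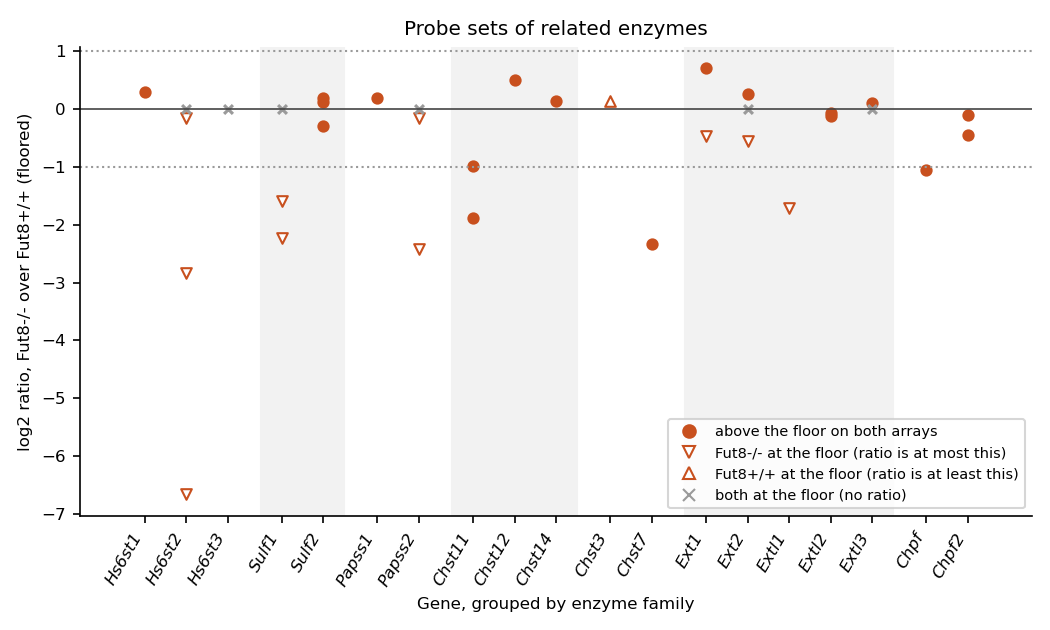
Floored log2 ratio of Fut8-/- over Fut8+/+ for the probe sets of related enzymes, grouped by family. Filled circles are above the floor on both arrays. Triangles have 1 array at the floor and point in the direction in which the true ratio may lie. A cross marks a gene with 1 or more probe sets at the floor on both arrays, which have no ratio. Hs6st2, Sulf1, Papss2, Chst11, Chst7, Extl1 and, just past it, Chpf lie below the 2-fold line (dotted) at their brightest probe set. Hs6st1, Sulf2, Papss1, Chst12, Chst14, Chpf2 and the other exostosin genes lie between the lines.

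Across the members, the promoter windows of lower genes and of genes within 2-fold were set side by side. Windows were used for 33 of the 42 members, 42 windows in all, and Sulf1 was not among them. Member windows on chromosome 18, where Chsy3 lies, were left out, whereas the shares over all windows had no such exclusion. The 9 windows of lower members came from 7 genes and the 23 windows of members measured within 2-fold from 18 genes. Windows of 1 gene were counted separately, although they can overlap, as those of Chpf2 do. GGGCGG was present in 5 of the 9 (55.6%) and in 15 of the 23 (65.2%). CCAAT was present in 44.4% and 43.5%, and TATAAA in 1 window of each set (11.1% and 4.35%). The AP-1 motif TGACTCA was present in 0 of the 42 windows, against 4.46% of all windows, and the cAMP response motif TGACGTCA in 3 of 42 (1.55% of all windows), among them the window of Chpf. The median CpG count was 16 in the windows of lower members, 17 in those of members within 2-fold and 6 over the whole table. Motifs were counted on both strands, at every position.

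The 8 lower members lay on 6 chromosomes. Hs6st2 and Chst7 are X-linked, and on chromosome X 12.3% of 324 measured genes were lower, with a median log2 ratio of 0.02. Sulf1 and Chpf lie on chromosome 1, where 9.08% of measured genes were lower. For Extl1 on chromosome 4 that share was 8.68%, for Hpse on chromosome 5 8.14%, for Chst11 on chromosome 10 6.19% and for Papss2 on chromosome 19 6.68%. Without chromosomes X and Y, an alternative chosen after the data were seen, 6 members were lower. The bearing of the sex-linked difference on Hs6st2 and Chst7 was not tested.

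Proteoglycan core proteins, the carriers of these chains, held a larger share of lower genes than the enzymes did, a difference that carries no test. The list of 32 genes was chosen for this comparison with earlier results of these data known, and 19 of them were measured. Of the 19, 8 passed the 2-fold limit downwards (42.1%), 2 upwards and 9 neither way, with a median log2 ratio of -0.74. The background is 8.46% lower and 6.08% higher. The glypican gene Gpc6 read 120 and 10.6 (9.73-fold lower), the agrin gene Agrn 709 and 195 (3.12-fold lower) and the syndecan gene Sdc3 53.4 and 12.1 (3.80-fold lower). The chondroitin sulfate carrier gene Cspg4 (206 and 49.5), Smoc1 (72.9 and 2.37, at least 5.90-fold lower) and the neuropilin gene Nrp1 (499 and 143) were lower as well, as were Bgn and Sdc2. Smoc1 was counted as listed, without a check that its product carries such chains. Gpc6, Nrp1 and Sdc2 each had probe sets of both signs. Syndecan-1, syndecan-4, glypican-1 and versican were within 2-fold, with log2 ratios of -0.73 (Sdc1), -0.41 (Sdc4), -0.82 (Gpc1) and -0.74 (Vcan). The higher genes were Gpc3, at 4.71 and 49.7 (at least 4.69-fold), and Col18a1, the collagen with heparan sulfate chains, at 111 and 384. With the median over probe sets 5 of the 19 were lower, beside 7 of the 28 measured enzymes, so the larger share depends on the choice of probe set.

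Genes for precursor supply and for breakdown passed 2-fold about as often as all measured genes, of which 14.5% did so in either direction. Of 14 measured genes for nucleotide sugars and sulfate supply 12 were within 2-fold, Gfpt2 was at least 4.01-fold lower (49.5 and 5.88) and the Golgi PAPS transporter gene Slc35b2 was 2.21-fold higher (273 and 520), although its probe sets differed in sign and without centring none of the list was higher. The xylose donor gene Uxs1 read 530 and 857 (0.91). Of 13 measured genes for glycosaminoglycan breakdown 11 were within 2-fold. Gusb, the lysosomal beta-glucuronidase, read 726 and 137, 4.57-fold lower, and Tmem2 (named Cemip2 in the annotation), a surface hyaluronidase, read 127 and 249, 2.29-fold higher; without centring 2 of this list were lower and 0 higher. Of 5 measured genes among other linker, chain and sulfation enzymes, Pxylp1, the phosphatase that acts on the linker xylose, was 2.56-fold higher (273 and 599), and the linker galactosyltransferase genes B4galt7 and B3galt6 had log2 ratios of 0.84 and -0.69.

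Hyaluronan-binding genes were measured for 4 of 15, of which Tnfaip6 was 3.88-fold lower (72.9 and 16.2), while the hyaluronan receptor gene Cd44 read 1675 and 1626. In keratan sulfate synthesis, 4 of 8 genes were measured. The sulfotransferase gene Chst1 was 4.16-fold higher (24.8 and 88.5) and Chst2 at least 3.70-fold lower (45.7 and 10.2). Growth factors and receptors known to depend on heparan sulfate were lower for 5 of 11 (45.5%) and higher for 4 (36.4%). Over all measured genes those shares were 8.46% and 6.08%. With the median over probe sets 4 of the list were lower and 1 was higher. The heparin-binding growth factor gene Ptn read 4603 and 44.4 (89.1-fold lower), the chemokine gene Cxcl12 1172 and 257 (3.92-fold lower) and Hbegf 480 and 153 (2.70-fold lower). Vegfa was 2.53-fold lower (324 and 109.9). The receptor gene Fgfr1 read 470 and 162 (2.50-fold lower) and Fgfr2 101 and 215 (2.49-fold higher), and the ligand gene Fgf7 read 111 and 325 (3.41-fold higher). Robo1, a receptor for Slit proteins, read 12.7 and 137 (12.6-fold higher, with probe sets of both signs), and Slit2 150 and 350. These counts describe lists of 4 to 19 measured genes, chosen with earlier results of these data known, and carry no test.

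**Figure D4:**
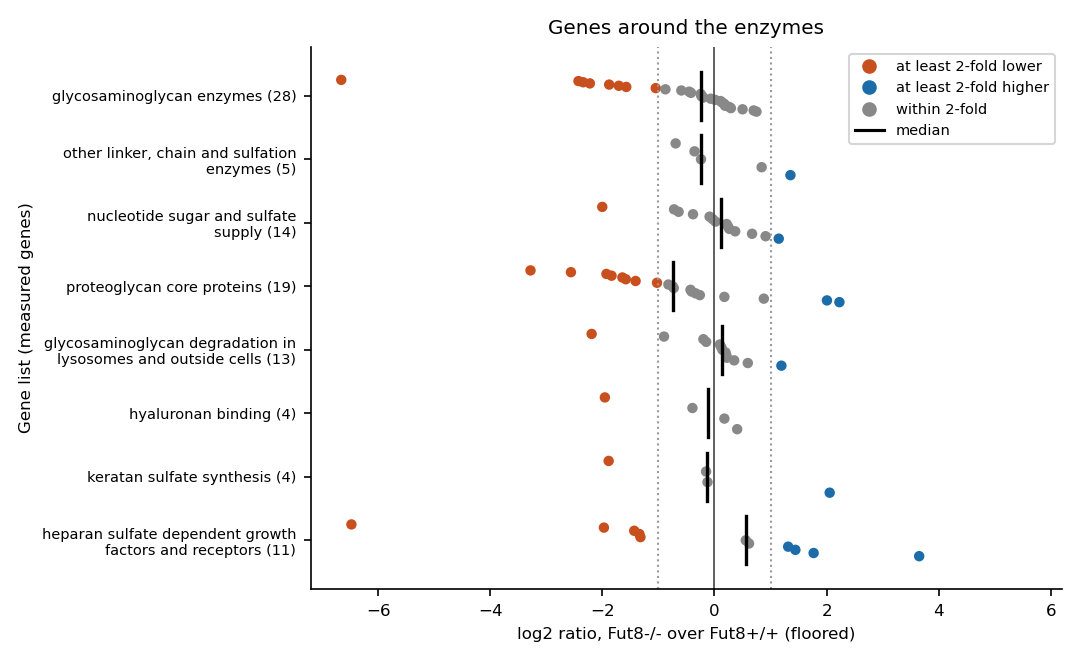
Floored log2 ratio of Fut8-/- over Fut8+/+ for each measured gene of the glycosaminoglycan enzymes and 7 related lists (number measured in parentheses); black bars are medians and dotted lines mark 2-fold. Orange points, at least 2-fold lower, number 8 of 28 among the enzymes, 8 of 19 among proteoglycan core proteins and 5 of 11 among heparan sulfate dependent growth factors and receptors, whereas most genes for precursor supply and breakdown are grey.

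The genes beside the members on the chromosome were looked at next. The 6 genes with a probe set on each side of each measured member were taken, a window chosen after the values were seen. Around the 8 lower members 8 of 60 measured neighbours were lower (13.3%) and 3 were higher (5.00%). Around the 20 members within 2-fold 11 of 155 were lower (7.10%) and 6 were higher (3.87%), and over all measured genes the shares were 8.46% and 6.08%. These shares carry no test. Chpf stood out in this count, with 3 of its 7 measured neighbours lower. These were the muscle-related genes Speg at 686 and 47.6 (12.4-fold lower), Obsl1 at 256 and 11.4 (19.3-fold lower) and Des at 55.9 and 10.2 (at least 4.53-fold lower). Hs6st2 lies near the glypican genes Gpc4 and Gpc3, of which Gpc4 read 579 and 394 (log2 ratio -0.34) and Gpc3, at 4.71 and 49.7, was at least 4.69-fold higher. Of its measured neighbours on the other side, Mbnl3, Rap2c and Firre had log2 ratios of -0.86, -0.96 and -0.06, and Enox2 was 2.87-fold lower (155 and 46.3).

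**Figure D5:**
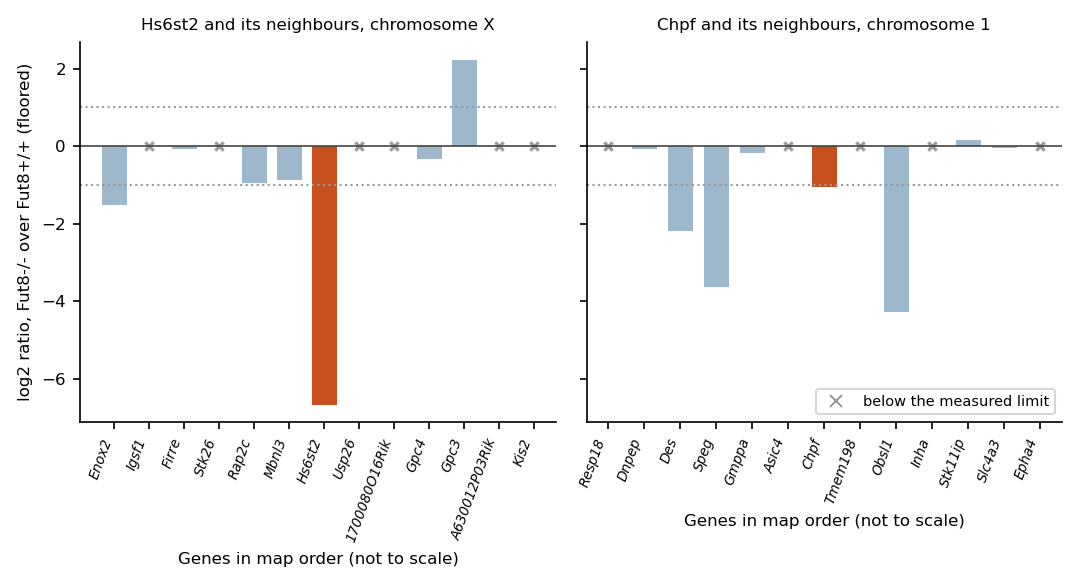
Floored log2 ratio of Fut8-/- over Fut8+/+ for Hs6st2 (left) and Chpf (right) in orange and the 6 genes on each side in map order, with crosses for genes below the measured limit; dotted lines mark 2-fold. The bar of Hs6st2 is far longer than those around it, while Chpf has shorter bars than its neighbours Speg, Obsl1 and Des.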

How the data were processed

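Biotin-labelled RNA from 1 Fut8+/+ and 1 Fut8-/- MEF culture was measured on Affymetrix mouse arrays. The deposited values are linear signal intensity per probe set, made with GCOS per the submitters' processing notes; the sources used here do not give its version, signal algorithm or scaling. Medians over 45101 probe sets were 20.5 (Fut8+/+) and 16.9 (Fut8-/-), and means trimmed by 2% at each end 189 and 164.

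Log2 ratios were centred on the median (-0.22) of probe sets brighter than the 40th percentile on each array; the floor and the measured limit are the 40th and 60th percentile of both arrays pooled. Control probe sets and those with no or several symbols (34945 had 1) were left out. The probe set with the highest mean log2 signal stood for a gene. Gene order and chromosomes came from RefSeq for GRCm38.p6, whose coordinates are printed only for promoter windows; 2 list symbols were matched through older names. The number of arrays limits the precision, and 1 array per genotype allows no test. Calculations used Python 3.11.15, pandas 2.3.3 and statsmodels 0.14.6, and were tested on simulated data.

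The members and lists were chosen with earlier results of these data known. All members are named; of other lists, genes past 2-fold (at most the 6 with the largest ratio in a list) and the checks Fut8, Eif2s3y and Xist. Further genes named (neighbours, markers, list genes within 2-fold, and, past the 6 of their list, Agrn, Nrp1, Bgn, Sdc2, Vegfa, Fgfr1 and Fgfr2) were picked with their values in view. The alternatives were no centring, quantile, loess and chromosome-wise normalization, floors at the 20th and 60th percentile, no filter or one at the 75th percentile, the median over probe sets, and leaving out probe sets ending in _s_at, _x_at or _a_at.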

Additional observations from a re-analysis of the deposited data

How the results depend on the processing

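Of 266 log2 ratios of members under the alternatives, 251 stayed within the probe set SD of their value, 15 moved further and 0 changed sign after having been called. Many of the 251 could not have moved. The centring shift (-0.22) is smaller than that SD (0.40), and the filters on the brighter array leave each ratio as it was. The count is therefore no measure of how stable the ratios are. The count of lower members was 3 of 28 with a floor at the 60th percentile. It was 2 of 16 with the measured limit raised to the 75th, and stayed between 6 and 9 otherwise. Without a filter 1 member, Chst15, was higher. The median of the members was -0.45 without centring, -0.033 without a filter and -0.027 with this raised limit. With the raised limit 332 of 7409 measured genes were higher and 448 lower. In the core protein list the higher count was 1 with the floor at the 60th percentile and 1 with the raised limit, and the lower count 5 under that limit and 5 with the median over probe sets. That median also gave 1 higher gene in the growth factor and receptor list. The cause of these moves was not tested; the stricter filter tests fewer genes by construction. No paired analysis was possible because each genotype has 1 array, and no replicate could be left out. Low signal kept 12 members from being measured.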
